A study of Mus musculus with 4 samples.

Results

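The thick ascending limb of the mouse kidney was examined through its cells that express Cldn16, the gene of the tight junction protein claudin-16. Cells were chosen on measured values: a barcode of the single-cell RNA-Seq data was taken when it had 200 to 5000 detected genes, under 50% mitochondrial UMIs (unique molecular identifiers, each standing for 1 captured RNA molecule), at least 5 UMIs of Slc12a1 that made up at least 10 of every 10000 UMIs, under 10 per 10000 of the proximal genes Slc34a1 and Lrp2 together, at least 1 Cldn16 UMI, and no more Cldn10 than Cldn16 UMIs. The rule took 764 of 34789 kept barcodes, and 58660 barcodes were in the files. They are called Cldn16 thick limb barcodes here.

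The data are 4 libraries of whole kidneys from male C3H mice, 18 weeks old, with 1 library in each condition. WT-ND came from wild-type mice on normal diet, WT-HFD from wild-type mice given a high-fat diet (60% of calories from fat), SP-ND from Sweet Pee mice on normal diet and SP-HFD from Sweet Pee mice on high-fat diet. The titles of the WT-ND and SP-ND libraries name no diet, and normal diet was inferred for them because the other titles carry HFD and the design names these diets. Where 4 values are given in a row below, they follow this order of libraries. Diets began at 10 weeks of age and lasted 8 weeks. Sweet Pee (SP) mice are homozygous for a missense change in Slc5a2, which encodes the glucose transporter SGLT2 of the proximal tubule, and carry it in every cell. How many animals each library pools is not given in the sources used here. The question put to the condition comparisons was how kidney cells of either genotype differ with diet, and the question put to the class comparisons was what sets the Cldn16 cells apart from other cells of the thick limb and from the next segment.

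The thick ascending limb takes up sodium, potassium and chloride from the tubule through Slc12a1 (NKCC2) and is nearly impermeable to water. Its cells build 2 kinds of tight junction: those with claudin-16 and claudin-19 pass calcium and magnesium, and those with claudin-10 pass sodium. Calcium-sensing receptor and parathyroid hormone receptor act in this segment, and loss of CLDN16 causes renal wasting of magnesium and calcium.

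Slc5a2, the mutated gene, was read at 162 CPM (UMIs of the gene per 1000000 UMIs of the pooled barcodes) over all kept barcodes of WT-ND and at 99.6 CPM in WT-HFD, against 22.3 CPM in SP-ND and 23.3 CPM in SP-HFD. It was lower in both SP libraries, and counting at the 3′ end does not read the allele itself. Proximal tubule markers outside the thick limb were also lower in both SP libraries, summing to 41259, 30805, 17186 and 16978 CPM. The part of cell composition in the Slc5a2 levels was not tested. In the Cldn16 thick limb barcodes Slc5a2 held 21, 28, 9 and 4 UMIs.

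The Cldn16 thick limb was found in every library: 185 of 10869 kept barcodes, 153 of 9700, 224 of 6754 and 202 of 7466. Set against all thick limb barcodes (the same rule without its claudin terms, 4285 in all), wild-type kidneys gave a share of 17.2% on ND (95% Clopper-Pearson interval 15.0 to 19.6%) and 16.9% on HFD (14.5 to 19.4%), and SP kidneys 18.9% on ND (16.7 to 21.3%) and 18.1% on HFD (15.9 to 20.5%). The 4 intervals overlapped. With 2 or more Cldn16 UMIs required they did not all do so: the share was 8.19% in WT-ND (6.62 to 10.00%) and 12.6% in SP-ND (10.7 to 14.6%), at median depths of 5764 and 8880 UMIs in the Cldn16 barcodes. Among all kept barcodes the share was 1.70%, 1.58%, 3.32% and 2.71%, higher in both SP libraries, which also had fewer kept barcodes. Intervals cover counting error only, and no test of the conditions was made. Detection of a low gene depends on depth. After every thick limb barcode was thinned to 2000 UMIs (shallower ones, 56, 40, 75 and 105, were left out), the shares were 11.98%, 10.7%, 11.5% and 13.9%, again with overlapping intervals.

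**Figure D1:**
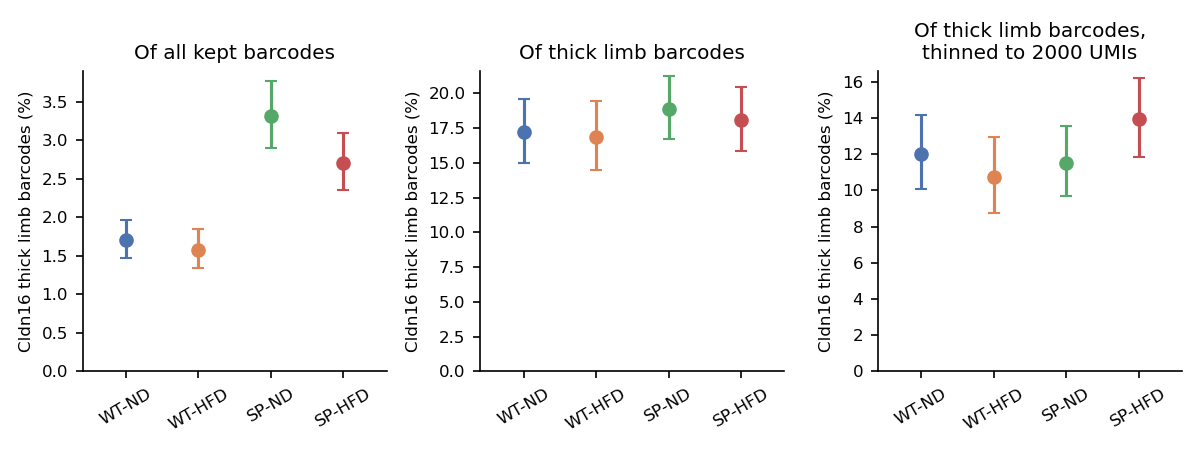
Share of barcodes that met the Cldn16 thick limb rule in each library (points, in percent) with 95% Clopper-Pearson intervals (bars), out of kept barcodes, out of thick limb barcodes, and out of thick limb barcodes thinned to 2000 UMIs. The intervals of the SP libraries lie above those of the WT libraries in the left panel, and in the other panels all intervals overlap, with shares between 16.9% and 18.9% unthinned and between 10.7% and 13.9% thinned.

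The label of the cells held against their markers. Umod, which encodes the urinary protein uromodulin made by the thick limb, was found in all 185, all 153, 222 of 224 and 201 of 202 barcodes, at 11021.5, 16143, 10071 and 12126 CPM. Egf, the epidermal growth factor precursor, was found in 185, 151, 221 and 199 barcodes. Outside the thick limb Umod was at 482, 1144, 498 and 1038 CPM. Slc12a1, Cldn16 and Cldn10 are also markers of this segment, but the rule used them. Nos1, the defining gene of the macula densa at the end of the thick limb, had a UMI in 1, 1, 4 and 2 barcodes.

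The median Cldn16 thick limb barcode held 5764, 8221, 8880 and 7510.5 UMIs, with 32.4%, 30.6%, 34.8% and 32.0% mitochondrial UMIs. All of them together held 1171983, 1376449, 2152043 and 1672471 UMIs, out of 93142028, 115117649, 111617794 and 90728590 UMIs in the libraries. Between 54 and 77 barcode sequences occurred in any pair of libraries, at most 0.522% of a library, and none of these was a Cldn16 thick limb barcode in both. No doublets were removed for this report. Fewer than 3 UMIs of podocyte, endothelial, immune, principal cell, intercalated cell and fibroblast markers were found in 83.2%, 82.4%, 80.8% and 82.7% of the Cldn16 barcodes.

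Markers of other cells were present. The 10 proximal tubule markers summed to 4673, 1882, 964 and 1218 CPM, with Kap as the most abundant (3386, 1182, 391 and 750 CPM) and with Slc34a1 and Lrp2 held down by the rule, and to 41259, 30805, 17186 and 16978 CPM outside the thick limb. The 6 intercalated cell markers summed to 351, 163, 170 and 89.1 CPM, with Atp6v1g3 on top in the first 3 libraries. The 6 endothelial markers summed to 44.4, 157, 12.1 and 174 CPM, higher in both HFD libraries, and their part in the diet comparisons below was not tested. The 8 immune markers summed to 49.5, 32.7, 39.5 and 14.9 CPM, of which Cd79a stood at 0 in all 4 libraries and Cd3e and Nkg7 in WT-ND, SP-ND and SP-HFD. The principal cell marker Aqp2 was at 93.0, 26.2, 81.3 and 87.9 CPM, and the podocyte marker Podxl at 49.5, 9.44, 21.4 and 31.1 CPM. Acta2, a mural cell marker, was at 13.7, 2.18, 0.929 and 45.4 CPM. The part of these cell types in the comparisons between libraries was not tested.

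Cldn16 was counted sparsely. It stood at 280, 312, 268 and 336 CPM, which the rule sets, and 290 of the 764 barcodes held 1 UMI, 474 held 2 or more, and the highest held 12. No Cldn10 UMI was seen in 571 of the 764 barcodes (74.7%), and 95 had as many Cldn10 as Cldn16 UMIs. The claudin classes were not closed: 999 of the 3069 thick limb barcodes in which Cldn10 outnumbered Cldn16 (the Cldn10 thick limb) also held a Cldn16 UMI, or 32.6%. A Cldn16 UMI was found in 1.45%, 2.96%, 0.937% and 0.990% of barcodes with 2 or more UMIs of the leukocyte gene Ptprc, at median depths of 2414, 4630, 3527 and 3654 UMIs, while the rule sets this share to 100% in the Cldn16 thick limb.

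At the edge of the rule some genes lay between the classes. The 95 ties had 135 CPM of the prostaglandin receptor gene Ptger3, and the 70 barcodes just outside, with Cldn10 ahead by 1 UMI, had 225 CPM. In the 352 barcodes with 2 or more Cldn16 UMIs and no Cldn10 it was 39.3 CPM, and in the 2070 with Cldn10 and no Cldn16 it was 426 CPM. The potassium channel gene Kcnj10 ran the other way, at 171 CPM in the 352 barcodes, 114 CPM in the ties, 95.4 CPM just outside and 59.3 CPM in the 2070. Other genes were not in between: Cldn19 was at 158 CPM, 123 CPM, 120 CPM and 162 CPM in this order. Tmem207, a subtype gene called higher below, was at 120 CPM, 127 CPM, 66.8 CPM and 118 CPM.

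The Cldn16 thick limb differed from the Cldn10 thick limb in many genes that the rule did not use. Foxq1, a forkhead transcription factor gene, Tmem52b, a transmembrane protein gene, and Pth1r, the parathyroid hormone receptor, were higher, and the secretory granule gene Sycn and the Iroquois transcription factor genes Irx1 and Irx2 were lower. UMIs were summed per library and class, so that each library gave a pair of values, and were tested with edgeR's quasi-likelihood test with the library as a block and Benjamini-Hochberg adjustment over all genes (edgeR below). Of 10739 genes tested, 566 were higher (5.27%) and 709 lower (6.6%) in the Cldn16 class. The 4 libraries differ in diet and genotype and serve here as replicates of the class difference. The counts were 284 and 380 without the library block, 290 and 356 by DESeq2, 177 and 222 under 30% mitochondrial UMIs, 210 and 281 with each barcode thinned to 2000 UMIs, and 362 and 418 without SP-ND. Under each of the 12 alternatives, the 24 leading genes kept their direction and an adjusted p under 0.05.

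Foxq1 (chr13:31556134-31560976, + strand, mm10) stood at 175, 218, 192 and 251 CPM in the Cldn16 barcodes and at 13.7, 15.4, 15.3 and 25.8 CPM in the Cldn10 barcodes. The library values of the classes did not overlap, and the log2 fold change was 3.57 ± 0.10 (SE, edgeR, adjusted p = 6.51e-13). Tmem52b (chr6:129512555-129519227, + strand) had 650, 633, 727 and 736 CPM against 76.6, 51.0, 70.1 and 83.4 CPM, a log2 fold change of 3.29 ± 0.08 (SE, edgeR, adjusted p = 3.4e-13). Car15, a membrane-anchored carbonic anhydrase, was at 1794, 1274, 2150 and 1940 CPM against 550, 235, 469 and 519 CPM, with a log2 fold change of 2.05 ± 0.09 (SE). Every Cldn16 library value of these 3 genes was above every Cldn10 library value. The genes were chosen for large fold changes of the same sign in all 4 libraries.

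The other leading genes on the Cldn16 side were Slc34a2, a sodium phosphate cotransporter (log2 fold change 2.40), Cxcl10, an interferon-induced chemokine (2.17), Pth1r (2.09), Itpr2, an inositol trisphosphate receptor of the endoplasmic reticulum (1.94), Zfp503 (1.93), Irx3 (1.82), Wnk1 (1.74), Pvalb (1.73) and the Notch ligand gene Jag1 (1.59). Few Cldn16 barcodes carried Cxcl10: 12 of 185, 12 of 153, 18 of 224 and 31 of 202 held a UMI. The richest barcode of each library held 43.3%, 35.5%, 32.3% and 27.1% of its UMIs. Zfp503, a zinc finger gene, held 334.6 ± 15.2 CPM (SD, n = 4) in the Cldn16 class and 90.5 ± 34.7 CPM in the Cldn10 class. Wnk1, a kinase that controls salt transport, held 861, 852, 1622 and 1146 CPM against 291, 235, 394 and 399 CPM; 3′ counting does not part its full-length transcript from its kidney-specific one. Pvalb, which encodes parvalbumin and marks the distal convoluted tubule, was at 139, 227, 109 and 138 CPM against 30.9, 80.4, 28.9 and 48.2 CPM. The other distal markers tested, Slc12a3, Calb1, S100g and Slc8a1, did not pass the test (adjusted p of 0.135 to 0.863, edgeR).

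On the Cldn10 side Sycn led, at 2.56, 5.81, 1.86 and 2.99 CPM in the Cldn16 barcodes against 105, 424, 136 and 223 CPM in the Cldn10 barcodes (log2 fold change -6.10 ± 0.15, SE, edgeR, adjusted p = 3.02e-13). It was followed by Esam, an adhesion molecule gene (-3.58), the microtubule gene Map1b (-3.19), Nccrp1 (-3.07), Eprn (-2.93), Irx1 (-2.90), Enpp2, which encodes autotaxin (-2.82), Ptger3 (-2.70), Stmn1 (-2.69), Pcsk6, a proprotein convertase (-2.67), Ptgds, a prostaglandin D synthase (-2.66), and Pla2g7, an acetylhydrolase of platelet-activating factor (-2.66). These 12 held mean levels between 3.31 CPM (Sycn) and 61.7 CPM (Ptger3) in the Cldn16 class. Agreement of sign in the 4 libraries was part of how the leading genes were chosen.

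**Figure D2:**
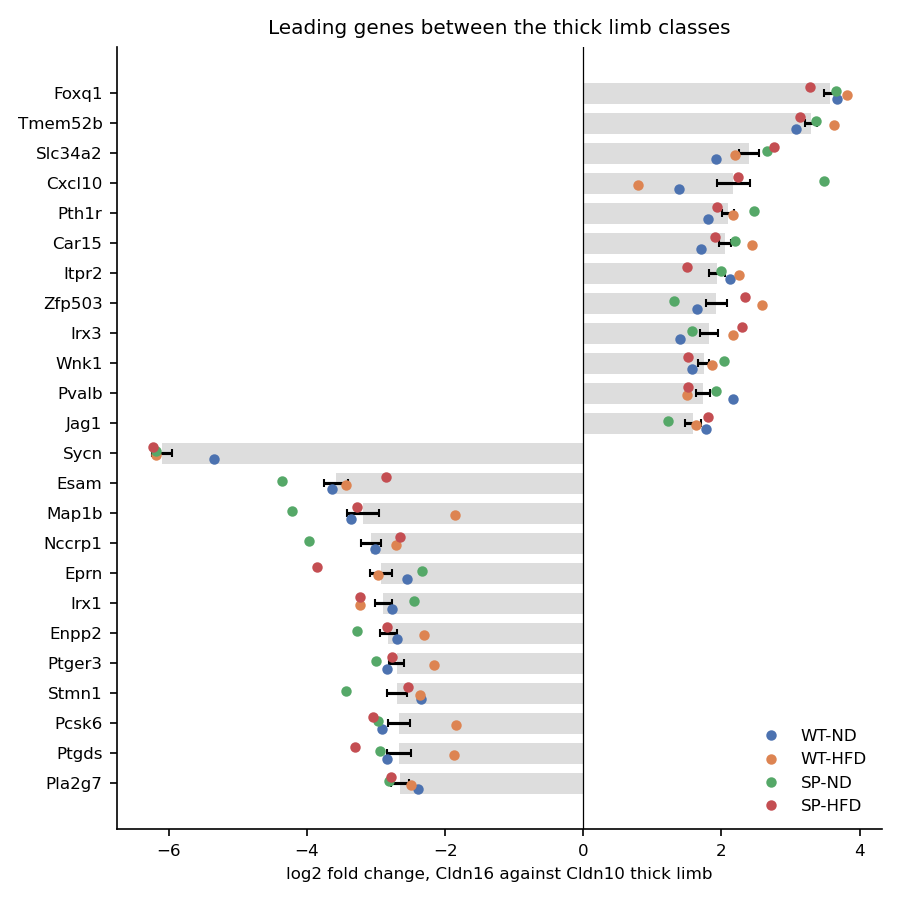
log2 fold change of the 24 leading genes between the Cldn16 and the Cldn10 thick limb (grey bars, edgeR, with SE as black bars) and the log2 ratio of CPM in each library (coloured points). Genes were chosen for the same sign in all 4 libraries, and the bars run from -6.10 (Sycn) to 3.57 (Foxq1).

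The Iroquois genes split. Irx3 was at 75.1, 66.1, 73.0 and 81.3 CPM in the Cldn16 barcodes and 28.5, 14.8, 24.6 and 16.6 CPM in the Cldn10 barcodes. Irx1 was the reverse, at 21.3, 16.7, 23.7 and 19.1 CPM against 145, 156, 130 and 180 CPM, and Irx2, its neighbour on chromosome 13, was lower as well (log2 fold change -2.12 ± 0.19, SE). Among 12 genes listed as marking thick limb subtypes, 7 were higher (Foxq1, Irx3, Jag1, Enox1, Kcnj10, Kcnj16 and Tmem207) and 4 lower (Irx1, Irx2, Ptger3 and Pappa2), beside 5.27% and 6.6% of all genes, with a median log2 fold change of 0.46 against 0.01 over all genes tested. Bmp6 did not pass the test.

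Genes of calcium and magnesium handling were higher in the Cldn16 class where they differed. Of 19 genes in the list 16 were tested: 9 were higher, none was lower and 7 did not pass the test, beside 5.27% higher and 6.6% lower of all genes, and their median log2 fold change was 0.49 against 0.01 over all genes. Pth1r was at 578, 548, 741 and 710 CPM against 166, 122, 134 and 187 CPM. Casr, the calcium-sensing receptor, was at 149, 161, 116 and 148 CPM in the Cldn16 class and 74.4 ± 9.5 CPM (SD, n = 4) in the Cldn10 class (log2 fold change 0.94 ± 0.08, SE). Also higher, among others, were Vdr, the vitamin D receptor (0.97), the plasma membrane calcium pumps Atp2b4 (1.00) and Atp2b1 (0.57), Egf (0.77), Rragd, a GTPase of the amino acid sensing pathway (0.76), and Kl, which encodes the coreceptor klotho (0.47). Umod did not pass the test (log2 fold change -0.17, edgeR, adjusted p = 0.105), with 12340 ± 2671 CPM (SD, n = 4) against 13738 ± 2692 CPM.

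Claudins and other tight junction genes differed in part. Of 14 listed, 12 were tested, and beside 5.27% and 6.6% of all genes tested 3 were higher (Cldn14, Cldn8 and Tjp3) and 1 was lower (Marveld2, tricellulin), with a median log2 fold change of -0.22. Cldn14, a claudin of the thick limb that is induced through Casr, was low and higher in each library, at 19.7 ± 14.0 CPM (SD, n = 4) against 1.5 ± 1.0 CPM, a log2 fold change of 3.66 ± 0.39 (SE). In the Cldn16 class it stood at 5.12, 10.9, 34.9 and 28.1 CPM, higher in both SP libraries. These levels were under the 100 CPM required in the comparisons between libraries below. Cldn19, the partner of Cldn16 in the divalent pore, was at 164, 163, 125 and 146 CPM in the Cldn16 class and at 170.5 ± 7.7 CPM (SD, n = 4) in the Cldn10 class, and did not pass the test (log2 fold change -0.21 ± 0.08, SE, edgeR, adjusted p = 0.108). Tmem207, which lies beside Cldn16 on chromosome 16 (chr16:26503656-26526769, - strand; Cldn16 at chr16:26463135-26482765, + strand), was at 127 ± 39.4 CPM against 95.9 ± 17.1 CPM (SD, n = 4, log2 fold change 0.36, edgeR, adjusted p = 0.0374).

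Salt transport genes moved in both directions. Of 17 listed genes 16 were tested, and beside 5.27% higher and 6.6% lower of all genes 5 were higher and 9 lower, with a median log2 fold change of -0.26. Kcnj10 and Kcnj16, basolateral potassium channels, were higher (1.49 and 0.56), and so was the sodium proton exchanger Slc9a3 (0.40). Fxyd2, the gamma subunit of the sodium pump, was at 2657 ± 167 against 5726 ± 671 CPM (-1.11), and its beta subunit gene Atp1b1 was lower by less (-0.34). Kcnj1 (-0.32), Stk39 (-0.46), Wnk4 (-0.30) and Avpr2 (-0.90) were lower too.

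Ier3, an early response gene, stood out in the list of 12 immediate early genes, all tested, at 357, 974, 625 and 1045 CPM against 142, 392, 187 and 419 CPM (log2 fold change 1.42 ± 0.07, SE). Jun was also higher (0.33) and Dusp1 lower (-0.54), beside 5.27% of all genes higher and 6.6% lower. The other 9 did not pass the test. Of 12 MHC and interferon genes, Isg15 was higher (27.3 ± 14.2 against 12.5 ± 5.0 CPM, SD, n = 4) and the other 11 did not pass the test. Among 12 injury genes, 9 were tested and 3 were higher (5.27% of all genes), among them Clu, which encodes clusterin (1.48), and Spp1, osteopontin (0.34). In the NF-kB pathway list, 10 of 12 were tested and Il34 was lower (-1.19). A single call in a list of this size is near the share of all genes called.

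Markers of other cells differed for some cell types. None of the 8 proximal, 6 principal cell or 6 endothelial markers tested passed the test. Their median log2 fold changes were -0.02, 0.48 and -0.04 in this order. Among 6 intercalated cell markers Atp6v0d2, a proton pump subunit, was higher (34.5 ± 8.8 against 9.7 ± 4.5 CPM, SD, n = 4), and Foxi1 and Slc4a1 did not pass. Beside 6.6% lower and 5.27% higher of all genes, 3 of 5 immune markers tested (Lyz2, C1qa and C1qb) and 2 of 4 podocyte markers (Nphs1 and Podxl) were lower, at a mean of 27.9 CPM (Podxl) or less in the Cldn16 class. Of the thin limb markers Cryab (43.0 against 205.4 CPM), Akr1b3 and Aqp1 were lower, 1 of the 5 tested was higher and 1 did not pass the test. The median log2 fold change was -1.56 over the immune, -0.67 over the podocyte, -0.75 over the thin limb and 0.78 over the intercalated cell markers tested, and their part in the counts above was not tested for the thin limb. Leaving out barcodes with 3 or more UMIs of podocyte, endothelial, immune, principal cell, intercalated cell and fibroblast markers gave 606 higher and 823 lower genes of 10106 tested.

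The distal convoluted tubule, the next segment, was a more distant neighbour. Its class was taken by the rule without its claudin terms, with Slc12a3, the thiazide-sensitive transporter gene, in place of Slc12a1. Slc12a1 UMIs also had to be fewer than Slc12a3 UMIs. The class held 2748 barcodes after 10 that also met the Cldn16 rule were left out. Of 10812 genes tested by edgeR, 1268 were higher (11.7%) and 1259 lower (11.6%) in the Cldn16 thick limb. By DESeq2, 710 were higher and 710 lower, and with barcodes thinned to 2000 UMIs, 538 and 529. Under 30% mitochondrial UMIs the counts were 669 and 708. The largest differences on the Cldn16 side were those of Slc34a2 (log2 fold change 6.54), Slc5a1, the glucose transporter SGLT1 (5.96), Slc9a3 (5.67), Tmem207 (5.56), Gm17750 (5.03), Car15 (5.02), Plau, which encodes urokinase (4.68), Irx3 (4.63), Cldn19 (4.60), Ppp1r1b (4.14), Foxq1 (4.08) and Shd (3.85). Slc5a1 was at 183, 161, 168 and 139 CPM against 1.46, 3.87, 3.18 and 1.61 CPM. Cldn19 was at 6.0 ± 2.6 CPM (SD, n = 4) in the Slc12a3 class.

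On the other side were the magnesium channel gene Trpm6 (-6.14), the calcium carriers Calb1 (-5.83), Slc8a1 (-5.67) and S100g (-5.10), the transcription factor genes Emx1 (-5.55) and Lhx1 (-5.53), and Scube3 (-4.89), Pgam2 (-4.42), Cyp2j11 (-4.21), Pvalb (-4.17), Kitl (-3.84) and Ank2 (-3.83). Trpm6 was at 2.08 ± 1.08 CPM (SD, n = 4) in the Cldn16 class and 150.5 ± 18.6 CPM in the Slc12a3 class. Pvalb, which was higher in the Cldn16 than in the Cldn10 thick limb, was at 2664 ± 638 CPM (SD, n = 4) in the Slc12a3 class. Of the calcium and magnesium list, 18 were tested here, 5 were higher in the Cldn16 class, Casr, Pth1r, Egf and Umod among them, and 10 lower, beside 11.7% and 11.6% of all genes. Kcnj10 (218.7 CPM), Wnk1 (2585 CPM) and Vdr (148.4 CPM) were higher in the Slc12a3 class than in the Cldn16 class, and the Cldn16 class lay above the Cldn10 class for all 3.

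**Figure D3:**
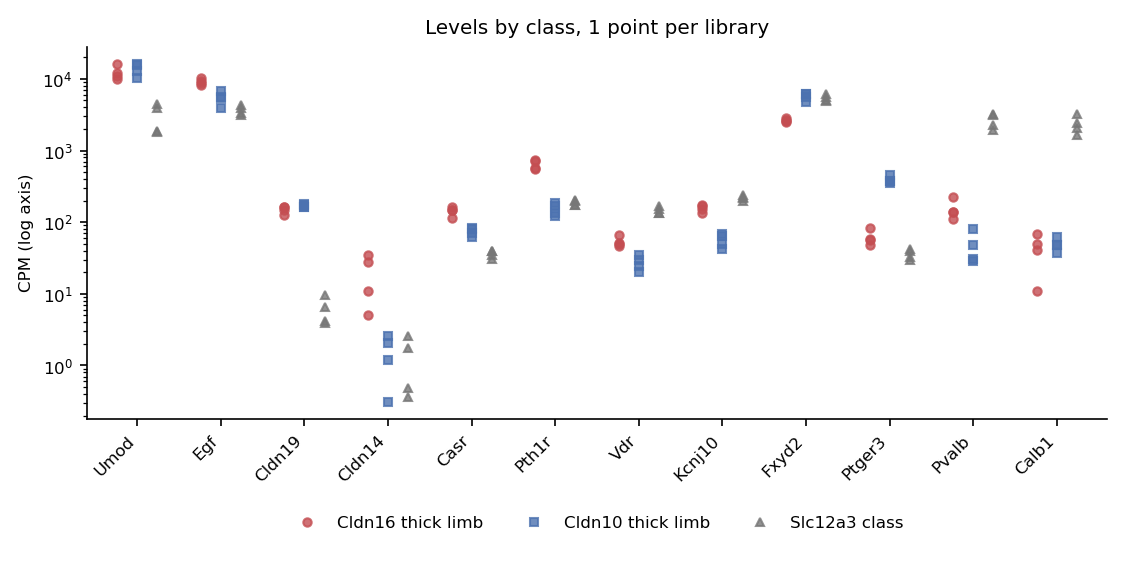
CPM on a log axis of 12 genes in the Cldn16 thick limb (red circles), the Cldn10 thick limb (blue squares) and the Slc12a3 class (grey triangles), 1 point per library. Casr and Pth1r are highest in the Cldn16 class, Cldn19 is alike in both thick limb classes and near 6 CPM in the Slc12a3 class, and Kcnj10, Vdr and Pvalb of the Cldn16 class lie between the others.

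Between libraries, 4 to 15 genes differed by 2-fold or more in the Cldn16 thick limb in each comparison. A gene was called when the CPM of the pooled barcodes differed by 2-fold or more between 2 libraries, among genes with at least 100 CPM in 1 of them. Each ratio sets 1 library against another, so none was tested, and its 95% interval (exact, conditional binomial) covers counting error only. The median log2 ratio of the genes compared was 0.09 and 0.15 with diet (WT, SP) and -0.05 and 0.02 with genotype (ND, HFD). How many were called depended on the settings: with a floor of 50 CPM the diet comparison in WT gave 21 higher and 33 lower genes, and under 30% mitochondrial UMIs that in SP gave 26 and 22. Of the genes that set the class apart, Foxq1 had log2 ratios of 0.32 and 0.38 with diet (WT, SP) and 0.14 and 0.20 with genotype (ND, HFD), and Pth1r of -0.08, -0.06, 0.36 and 0.37. Wnk1 was higher in SP-ND (0.91 with genotype on ND), and Cxcl10 and Ier3, which also set the class apart, are described below. Of the genes that reached 100 CPM, 11 of salt transport, 1 or 2 of tight junctions and 4 of the subtype list were compared in each comparison, and none was called. Of the calcium and magnesium list 8 or 9 were compared, and S100g was called lower with diet in SP. From 0.0947% to 0.992% of all genes were called in a direction, a share at which lists of this size would rarely hold a call.

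In WT mice 4 of 1053 genes were higher on HFD (0.38%) and 10 lower (0.95%). Ier3 was at 357 CPM in WT-ND and 974 CPM in WT-HFD, a log2 ratio of 1.45 (1.29 to 1.61), and the ratio was 1.47 in the Cldn10 thick limb and 0.91 outside the thick limb. It had a UMI in 67.0% of Cldn16 barcodes in WT-ND and 94.1% in WT-HFD. Bhlhe40, a transcription factor gene that also acts in the circadian clock, was at 40.1 and 107 CPM (1.41, 0.93 to 1.92), with a ratio of 0.25 in the Cldn10 class. The ribonuclease gene Rnaset2a (1.23) and the heme exporter gene Flvcr1 (1.05) were the other genes called higher, and Tsc22d1 (0.97) came next.

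The genes lower on HFD in WT mice were led by Slc14a2, which encodes a urea transporter of the thin limb and inner medulla, at 139 CPM in WT-ND and 1.45 CPM in WT-HFD. Of its 163 UMIs in WT-ND, 160 were in 1 barcode, and without the richest barcode of each library the values were 2.59 and 0.729 CPM. The ratio changed sign without barcodes holding 3 or more UMIs of other cells' markers. Kap (-1.52, -1.60 to -1.43), Slc27a2 (-1.79), Spink1 (-1.61) and Cltrn (-1.52) followed. Kap and Slc27a2 are proximal tubule markers of the list, and Cltrn, which encodes collectrin, is also a gene of that segment. Outside the thick limb their ratios were -0.46, -0.77, -0.70 and -1.21, and levels there were far higher, with Kap at 29094 CPM in WT-ND and 21100 CPM in WT-HFD. In barcodes with 2 or more Ptprc UMIs Kap was at 8021 and 5482 CPM. The part of RNA from outside the cells in these ratios was not tested.

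In SP mice 4 of 1052 genes were higher on HFD (0.38%) and 3 lower (0.285%). Igkc, an immunoglobulin light chain gene, was at 4.65 CPM in SP-ND and 112 CPM in SP-HFD (log2 ratio 4.59, 3.68 to 5.67). It had a UMI in 121 of 202 barcodes of SP-HFD with at most 4 UMIs in any of them, and outside the thick limb it stood at 208 and 16132 CPM; the part of RNA from outside the cells was not tested. Slc12a3 (1.19) was at 64.6 and 147 CPM, and a single barcode held 54.7% of its UMIs in SP-ND; without the richest barcodes the ratio was 2.00. Rnaset2a (1.07) and Cxcl10 (1.06) completed the genes called higher. Cxcl10 was at 122 CPM in SP-ND and 254 CPM in SP-HFD but at 88.7 and 22.5 CPM in WT-ND and WT-HFD, a log2 ratio of -1.98 (-2.61 to -1.39) at levels under the 100 CPM floor. Acaa2, a mitochondrial enzyme of fatty acid oxidation, was just under 2-fold at 101 and 202 CPM (1.00, 0.75 to 1.25), with 0.69 in the Cldn10 class and 0.04 outside the thick limb.

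Egr1, an early growth response gene, was at 380 CPM on ND and 105 CPM on HFD (log2 ratio -1.86, -2.10 to -1.62). SP-ND was the library that stood apart: Egr1 was at 106 and 109 CPM in WT-ND and WT-HFD, and it had a UMI in 153 of 224 barcodes (68.3%) of SP-ND against 17.8%, 23.5% and 21.3% in the others. The Cldn10 class held 332 CPM in SP-ND and 78.8 CPM in SP-HFD, and outside the thick limb it was 316 and 255 CPM. Egr1 responds to handling of tissue as well as to stimuli, and the part of dissociation was not tested. Of 9 immediate early genes compared, Egr1 was called lower, beside 0.285% of all genes, and 1, Ier3, had a ratio above 0, with a median log2 ratio of -0.57 against 0.15 over all genes. Zfp36 (155 and 105 CPM), Atf3 (108 and 71.2 CPM) and Klf6 (142 and 78.9 CPM) were highest in SP-ND as well, under 2-fold, while Fos (216 and 178 CPM) and Jun (326 and 286 CPM) were not highest there. S100g (-1.99) and Cltrn (-1.29) were the other genes called lower; 1 barcode held 587 of 1009 S100g UMIs in SP-ND, and the ratio was -1.51 without the richest barcodes.

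Of 978 genes tested in both diet comparisons, Rnaset2a was called higher and Cltrn lower in both. Rnaset2a was at 64.0, 150, 58.1 and 122 CPM, so both HFD libraries were above both ND libraries, and its ratios in the Cldn10 class were 1.56 and 1.33. Cltrn was at 196, 68.3, 127 and 52.0 CPM. Ier3 in SP mice was at 625 and 1045 CPM, under 2-fold (0.74, 0.64 to 0.85).

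On normal diet 5 of 1008 genes were higher in SP than in WT (0.496%) and 10 lower (0.992%). With 10% of the library's profile subtracted these counts were 6 and 4, and with a floor of 50 CPM 12 and 27. Klk1, the gene of tissue kallikrein, a protease that the distal nephron secretes into urine, was at 681 CPM in WT-ND and 1609 CPM in SP-ND (log2 ratio 1.24, 1.13 to 1.35). Clu was at 82.8 and 189 CPM (1.19, 0.87 to 1.52), with -0.32 in the Cldn10 class. Egr1 (1.84) and Gm42031 (1.19) were also called higher. Of 4 injury genes compared 2 were called higher, beside 0.496% of all genes, with a median log2 ratio of 0.89 against -0.05 over all genes.

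Markers of the proximal tubule were among the genes lower in SP-ND. Kap was at 3386 CPM in WT-ND and 391 CPM in SP-ND (-3.11, -3.22 to -3.01), and Cyp4b1 (-2.30), Ugt2b38 (-2.10) and Acsm2 (-1.92) followed. Their ratios were -2.85, -2.18, -1.98 and -1.75 in the Cldn10 class and -1.76, -1.28, -1.10 and -1.07 outside the thick limb. Of 5 proximal markers tested, 4 were called lower, against 0.992% of all genes tested. The summed proximal markers of the Cldn16 barcodes, 4673 CPM in WT-ND and 964 CPM in SP-ND, moved with them, and their part in the result was not tested. Slc14a2 (-5.90) rested on the 1 barcode of WT-ND described above. Here too its ratio changed sign without barcodes holding 3 or more UMIs of other cells' markers.

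On HFD 3 of 1056 genes were higher in SP than in WT (0.284%) and 1 lower (0.0947%). Klk1 was at 565 CPM in WT-HFD and 1907 CPM in SP-HFD (log2 ratio 1.76, 1.64 to 1.87), with 1.11 in the Cldn10 class and 1.72 outside the thick limb. Of 937 genes tested in both genotype comparisons it was called higher in both, and both SP libraries lay above both WT libraries. It was found in 77.3%, 71.2%, 89.3% and 83.2% of barcodes, and no barcode held more than 7.46% of its UMIs in a library.

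Cxcl10 was at 22.5 CPM in WT-HFD and 254 CPM in SP-HFD (log2 ratio 3.50, 2.97 to 4.07), with 2.05 in the Cldn10 class and -0.08 outside the thick limb. It was carried by few cells: 12, 12, 18 and 31 barcodes held a UMI, and the richest of each held 43.3%, 35.5%, 32.3% and 27.1% of the UMIs. Without the richest barcodes the ratio was 3.68. Igkc (1.18) was the other gene called higher, and Clu (0.94) and Ly6e (0.92) came next.

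Atp6v1g3, a proton pump subunit gene of intercalated cells, was the gene called lower on HFD, at 119 CPM in WT-HFD and 22.7 CPM in SP-HFD (-2.39), and was called lower on ND as well (221 and 92.0 CPM, -1.26), where the ratio was 0.45 among barcodes with 2 or more Cldn16 UMIs. A single barcode held 100 of its 164 UMIs in WT-HFD, and the ratio was -1.12 without the richest barcodes and 0.18 without barcodes holding 3 or more UMIs of other cells' markers. In the Cldn10 class it was 0.70. Pigr (-0.78), S100g (-0.74), Klf6 (-0.73) and Pvalb (-0.72) were under 2-fold, and S100g was at 0.53 without barcodes holding 3 or more UMIs of other cells' markers.

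**Figure D4:**
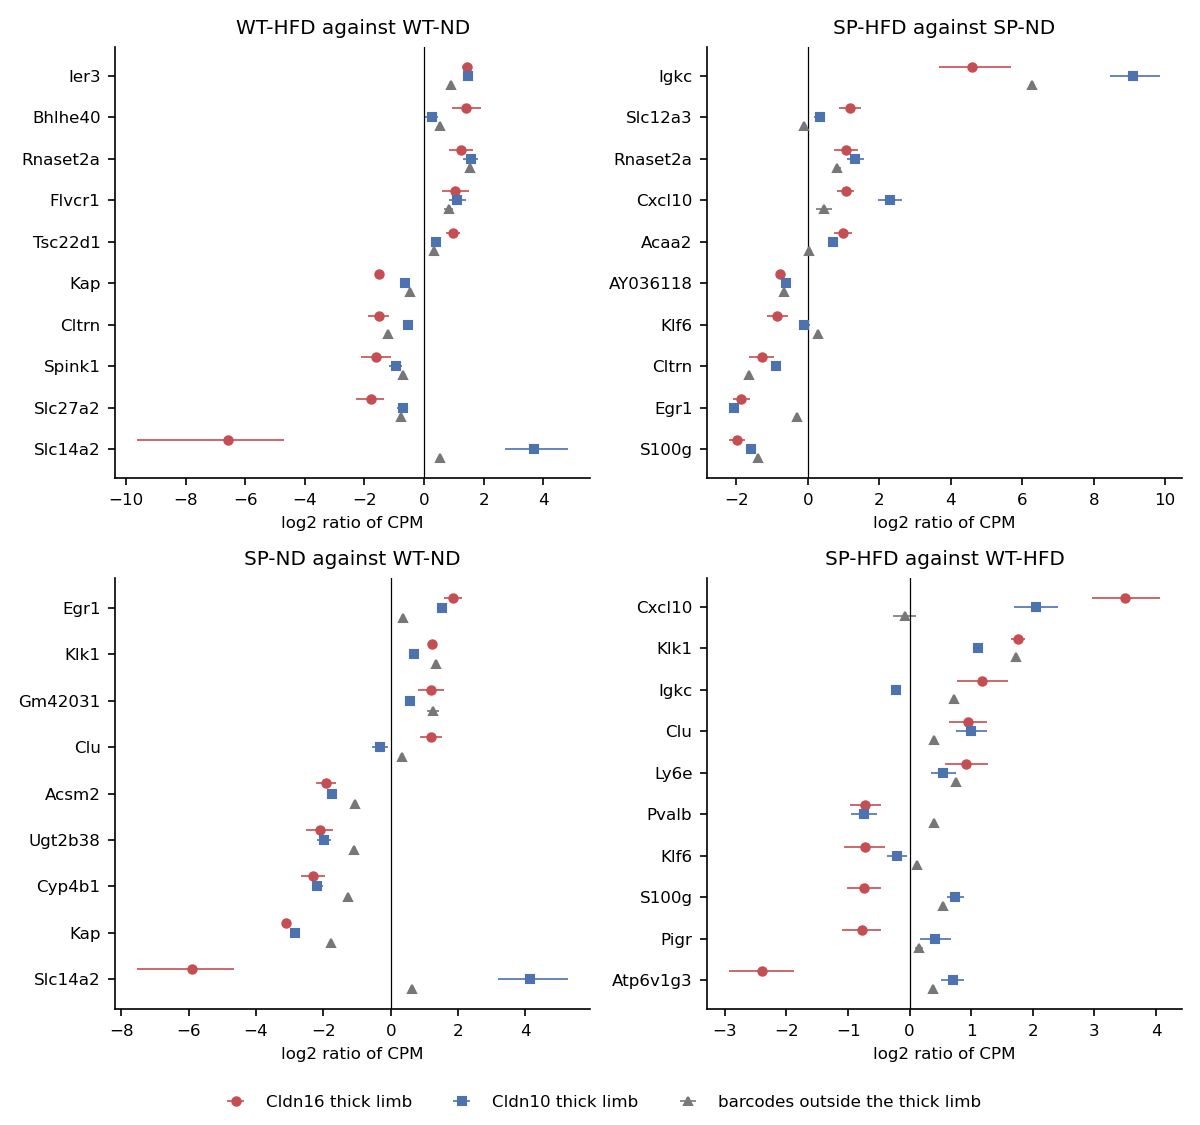
log2 ratio of CPM between libraries for leading genes of each condition comparison, with 95% intervals for counting error, in the Cldn16 thick limb (red circles), the Cldn10 thick limb (blue squares) and barcodes outside the thick limb (grey triangles). Klk1 lies to the right of 0 in all 3 sets in both genotype comparisons, and Slc14a2 has opposite signs in the thick limb classes.

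**Figure D5:**
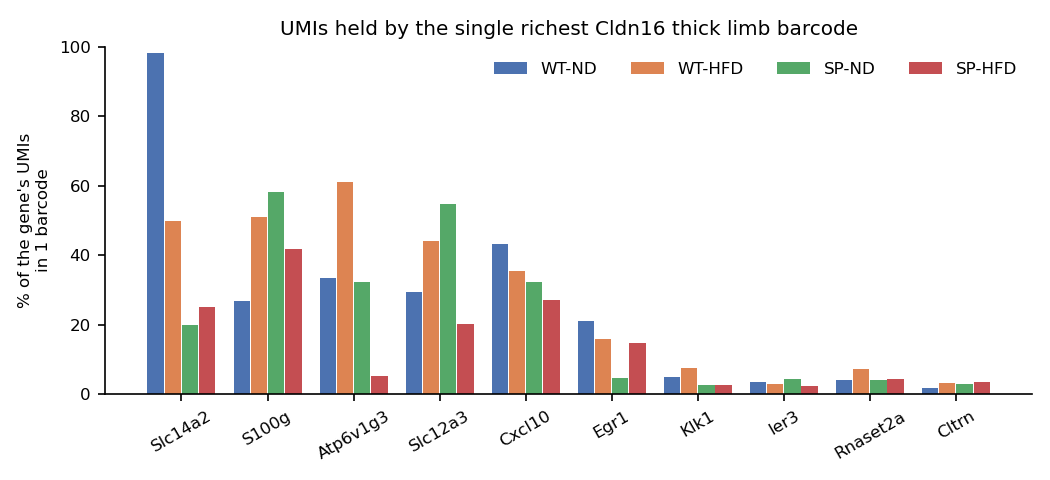
Percent of a gene's UMIs in the Cldn16 thick limb of each library (bars, coloured by library) that a single barcode held. Slc14a2 in WT-ND stands at 98.2% (of 163 UMIs; its other libraries hold 5 UMIs or fewer), while Klk1, Ier3, Rnaset2a and Cltrn stay under 8%.

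Genes of methionine metabolism and of the NF-kB pathway were low or similar. Mat2a, the S-adenosylmethionine synthetase gene, was at 91.3, 102, 91.5 and 99.9 CPM, and its log2 ratios were 0.16 and 0.13 with diet and 0.00 and -0.03 with genotype, each with an interval that held 0. No gene of the NF-kB pathway list reached 100 CPM in any library. Spp1 was at 2811, 3622, 4699 and 3660 CPM, highest in SP-ND, with a log2 ratio of 0.74 (0.68 to 0.80) between genotypes on ND and 0.01 on HFD.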

How the data were processed

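The authors sequenced 10x Genomics 3′ v3.1 libraries and deposited UMI counts per gene and barcode, without normalization. The build is mm10. The labels name Cell Ranger 2.1.1 and the file headers 6.1.2. For this report doublets were not removed and free RNA was not corrected. The authors describe removing doublets and estimating free RNA in their own processing. The Cldn16 barcodes, gene lists and tests were chosen with earlier results of these data known. Counts were summed per library and class, filtered with filterByExpr, scaled by TMM and tested with edgeR 4.0.16 (R 4.3.3, DESeq2 1.42.0 as an alternative). P-values measure how the class difference within a library varied over the 4 libraries, which differ in diet and genotype. The 5 genes of the rule were left out of calls, and Slc12a3 too in the comparison with the Slc12a3 class. The mt- genes were left out of the calls between libraries and of the named genes, but not of the class tests. Ratios between libraries were computed from pooled CPM, all UMIs included, with Python 3.11.15 and scipy 1.17.1. Named genes were list members, the 12 highest and 12 lowest called genes per class comparison (at least 50 CPM, same sign in 4 libraries), the 5 highest and 5 lowest ratios per condition comparison, and genes called in both diet or both genotype comparisons. Coordinates are from GENCODE M21. The tests recovered known changes in simulated counts. Some genes of these lists are counted but not reported here by name.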

Additional observations from a re-analysis of the deposited data

How the results depend on the processing

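Under the tighter claudin terms the class shrank. With 2 or more Cldn16 UMIs required, 474 barcodes were left, at 8.19%, 11.6%, 12.6% and 11.8% of thick limb barcodes (in the order of the report). With Cldn16 required to exceed Cldn10 the share was 14.2% in WT-ND and 15.7% in SP-HFD. Under 30% mitochondrial UMIs 298 barcodes were left, at 20.4% in WT-ND. Thinned to 1000 UMIs the shares were 8.72%, 7.53%, 8.78% and 8.43%.

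Genes higher and lower than in the Cldn10 thick limb numbered 290 and 356 by DESeq2, 284 and 380 without the library (replicate) block, 177 and 222 under 30% mitochondrial UMIs, 210 and 281 thinned to 2000 UMIs, and 1080 lower without the filter on low counts. Leaving out 1 library gave 362 to 498 higher and 418 to 691 lower genes. Against the Slc12a3 class they numbered 710 and 710 by DESeq2, 669 and 708 under 30% mitochondrial UMIs and 538 and 529 thinned, and leaving out 1 library gave 891 to 1069 and 926 to 1110. The 24 leading genes of each class comparison kept direction and threshold in all 552 values computed, those without the block included. The cause of these shifts was not tested; fewer genes were tested under 30% mitochondrial UMIs and after thinning.

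The counts of 2-fold differences between libraries depended on the choices. With a floor of 50 CPM, 21 genes were higher and 33 lower with diet in WT, 24 and 9 with diet in SP, 12 and 27 with genotype on ND, and 13 and 3 on HFD. Under 30% mitochondrial UMIs these were 10 and 31, 26 and 22, 20 and 25, and 14 and 6. With mt- genes left out of the totals they were 8 and 21, 7 and 6, 21 lower on ND, and 6 and 2. TMM factors gave 2 higher with diet in SP, and a mean over barcodes 8 higher there and 16 lower with genotype on ND. With fewer than 3 UMIs of other cells' markers, 10 were higher with diet in WT, and 5 higher and 0 lower with genotype on HFD. With 2 or more Cldn16 UMIs, 10 were higher with diet in WT, 7 lower with diet in SP and 4 lower with genotype on HFD. With 10% of the library's profile subtracted, 4 were lower with genotype on ND. Without the barcode with most UMIs of each gene, an alternative chosen after seeing the data, 0 were lower with genotype on HFD.

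Of the log2 ratios of named genes, 338 stayed within their counting interval, 65 left it and 5 changed sign. With fewer than 3 UMIs of other cells' markers, Slc14a2 was at 0.74 with diet in WT and 1.16 with genotype on ND, and with genotype on HFD Atp6v1g3 was at 0.18 and S100g at 0.53. With 2 or more Cldn16 UMIs, Atp6v1g3 was at 0.45 with genotype on ND. The cause was not tested. Depth limits low genes such as Cldn16, of which 290 barcodes held 1 UMI.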

Other observations

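Of 13 genes of mitochondrial energy supply, all tested against the Cldn10 thick limb by edgeR, 6 were lower, 1 was higher and 6 did not pass the test, beside 6.6% of all genes lower and 5.27% higher, with a median log2 fold change of -0.17 against 0.01 over all genes. Ckb, cytosolic creatine kinase, was at 493.2 ± 72.7 CPM (SD, n = 4) against 1196 ± 215 CPM (log2 fold change -1.29), and the mitochondrial isoform Ckmt1 was at 120.6 ± 13.6 against 84.4 ± 16.1 CPM (0.52). Cox4i1, a subunit of cytochrome c oxidase, Uqcrq, Idh2, Esrrb and Esrrg were lower by 0.68 or less on the log2 scale. Among glucose and fat genes, 12 of 13 were tested: Slc2a1, which encodes GLUT1, the hexokinase gene Hk1, Ldha and Fabp3 were lower, Pdk4 and Cd36 were higher, and the other 6 did not pass the test. The median log2 fold change of this list was 0.00 against 0.01 over all genes, of which 6.6% were lower and 5.27% higher. Heat shock genes were close between the classes, with 1 of 8 (Hsph1) lower, and none of 7 tested genes of methionine metabolism passed the test.

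Macula densa genes were sparse. Of 7 tested, beside 5.27% higher and 6.6% lower of all genes, Slc9a2 (0.52) and Ptges (1.02) were higher, Pappa2 (-1.81) was lower, and Nos1, Ptgs2, Avpr1a and Robo2 did not pass the test. Cells of the Cldn16 thick limb varied in Umod: in WT-ND the quartiles were 46.5 and 153 UMIs per 10000, and in SP-ND 31.7 and 161. AY036118 was at 1837, 739, 987 and 578 CPM, in the order WT-ND, WT-HFD, SP-ND, SP-HFD. Its log2 ratio with diet was -1.31 in WT and -0.77 in SP, and -1.01 and -0.66 outside the thick limb.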
